A study of Mus musculus with 11 samples.

Results

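The metalloproteinases, serpins and protease inhibitors of mouse mammary gland were described from RNA-seq at parturition (L1). Members were chosen by gene symbol alone: matrix metalloproteinases (Mmp), their tissue inhibitors (Timp), the ADAM, ADAMTS and ADAMTSL genes, serpins, WAP domain genes (Wfdc, with Slpi), the Kunitz inhibitors (Spint), the Kazal inhibitors (Spink), and the cystatins Cst3 and Cst6. The rule found 99 of the 14847 genes that carried a single symbol in the expression table. RefSeq has 187 protein-coding symbols that fit the rule, of which 96 were measured under that symbol. A few more appear under older symbols or in a locus shared by several genes, and the rest were not analysed here. The tissue came from wild-type mice of the background 129SV::FVB/N::C57BL/6, taken at parturition with the lymph nodes removed. It was represented by 1 library, so no value below has a replicate error or a test. The series, which asks how STAT5 binding and H3K4me3 build up at mammary genes, holds 11 samples in all, and the other 10 were not used here. Levels are FPKM, which divides a locus's fragments by its transcript length and the library's mapped fragments, and the highest of a gene's loci stands for the gene. Sequencing depth is unknown, since the table holds no counts.

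Extracellular proteases remodel the matrix around the mammary epithelium. Matrix metalloproteinases and ADAMTS enzymes cut collagens, proteoglycans and other matrix proteins, and ADAM enzymes release growth factors and receptors from the cell surface. TIMPs block these metalloproteinases, most serpins trap serine proteases, and WAP, Kunitz and Kazal domain proteins and cystatins block serine or cysteine proteases. In the gland, MMPs are known for ductal branching in puberty and pregnancy and for matrix breakdown in involution after weaning, with TIMPs as their counterweight.

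The library carried the markers of the labelled tissue. The 6 luminal and alveolar markers ranged from 108 to 170861 FPKM, the latter being the beta-casein gene Csn2, and the 5 measured basal and myoepithelial markers from 28.8 to 59.0. Other cells of whole tissue were present too: 5 adipocyte markers summed to 1381 FPKM, 5 fibroblast markers to 206 and 4 endothelial markers to 39.9. The 5 measured macrophage and neutrophil markers summed to 80.2 FPKM, 4 mast cell markers to 8.87, 4 lymphocyte markers to 3.80 and 3 skeletal muscle markers to 89.8. Of 3 liver markers none reached 1 FPKM. In a bulk library, few cells of a type and little RNA per cell cannot be told apart, so a low level below is a level in the whole tissue.

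The first 3 promoter sequences shown belong to the 3 members above 100 FPKM, Cst3, Wfdc3 and Spint2. Each holds the 250 bases before the annotated transcription start, from RefSeq on the build GRCm38.p6, written 5′ to 3′ with CG dinucleotides in capitals.
Cst3 (chr2:148875513-148875762, minus strand): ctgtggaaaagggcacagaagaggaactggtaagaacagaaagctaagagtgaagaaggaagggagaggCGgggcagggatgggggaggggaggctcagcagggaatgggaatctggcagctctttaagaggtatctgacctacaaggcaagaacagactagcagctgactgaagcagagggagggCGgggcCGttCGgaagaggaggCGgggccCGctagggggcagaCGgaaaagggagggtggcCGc
Wfdc3 (chr2:164743268-164743517, minus strand): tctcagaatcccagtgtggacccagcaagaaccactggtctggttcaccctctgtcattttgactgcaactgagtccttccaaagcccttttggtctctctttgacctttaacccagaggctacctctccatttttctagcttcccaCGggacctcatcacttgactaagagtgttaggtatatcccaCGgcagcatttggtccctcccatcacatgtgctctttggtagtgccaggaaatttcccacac
Spint2 (chr7:29281978-29282227, minus strand): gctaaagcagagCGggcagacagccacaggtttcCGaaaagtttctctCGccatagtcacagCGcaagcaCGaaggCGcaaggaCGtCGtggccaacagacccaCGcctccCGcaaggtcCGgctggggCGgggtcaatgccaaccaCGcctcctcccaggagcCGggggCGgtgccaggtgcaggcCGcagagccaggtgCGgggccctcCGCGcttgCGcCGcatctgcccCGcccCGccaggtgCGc

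These windows differed widely although all 3 genes were highly expressed: Spint2 had 24 CG dinucleotides, Cst3 had 8 and Wfdc3 had 2. The next pair belongs to Mmp3 and Mmp13, which lie in the same gene cluster, shown with the AP-1 motif TGANTCA and the TATA motif TATAAA in capitals. The last belongs to the serpin gene Serpinb6a, shown with the STAT consensus TTCNNNGAA in capitals.
Mmp3 (chr9:7445572-7445821, plus strand): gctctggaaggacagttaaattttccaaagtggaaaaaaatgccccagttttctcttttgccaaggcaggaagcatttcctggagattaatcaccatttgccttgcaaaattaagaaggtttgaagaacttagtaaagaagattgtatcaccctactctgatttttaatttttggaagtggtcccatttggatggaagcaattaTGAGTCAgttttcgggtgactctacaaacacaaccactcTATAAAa
Mmp13 (chr9:7272264-7272513, plus strand): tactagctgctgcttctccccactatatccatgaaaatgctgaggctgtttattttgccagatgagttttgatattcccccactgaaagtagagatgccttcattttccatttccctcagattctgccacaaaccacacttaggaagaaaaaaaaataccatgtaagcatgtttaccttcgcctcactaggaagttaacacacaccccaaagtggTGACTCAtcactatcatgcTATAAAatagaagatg
Serpinb6a (chr13:34002795-34003044, minus strand): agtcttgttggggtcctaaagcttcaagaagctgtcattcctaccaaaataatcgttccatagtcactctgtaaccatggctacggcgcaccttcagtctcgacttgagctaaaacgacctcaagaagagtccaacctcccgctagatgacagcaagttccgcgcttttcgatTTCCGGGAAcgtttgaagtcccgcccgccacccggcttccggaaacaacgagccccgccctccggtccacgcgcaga

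Most members were low in the gland at parturition, and a few inhibitor genes were very high. Of the 99 members, 48 (48.5%) reached 1 FPKM, against 73.6% of all named genes. At 10 FPKM the members counted 20 (20.2%) against 27.9%, and at 100 FPKM 3 (3.03%) against 2.96%, which is near the background. The median was 0.88 FPKM over the members and 3.90 over all named genes. On the log2(FPKM + 1) scale the members' median lay 1.38 lower, at 0.91 against 2.29. The members split into 8 listed at 0, 43 above 0 but below 1 FPKM, 28 from 1 to under 10, 17 from 10 to under 100, and the 3 above. Just inside the level of 10 FPKM stood Adamts6 at 10.01, and just outside it Wfdc2 at 8.38.

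**Figure D1:**
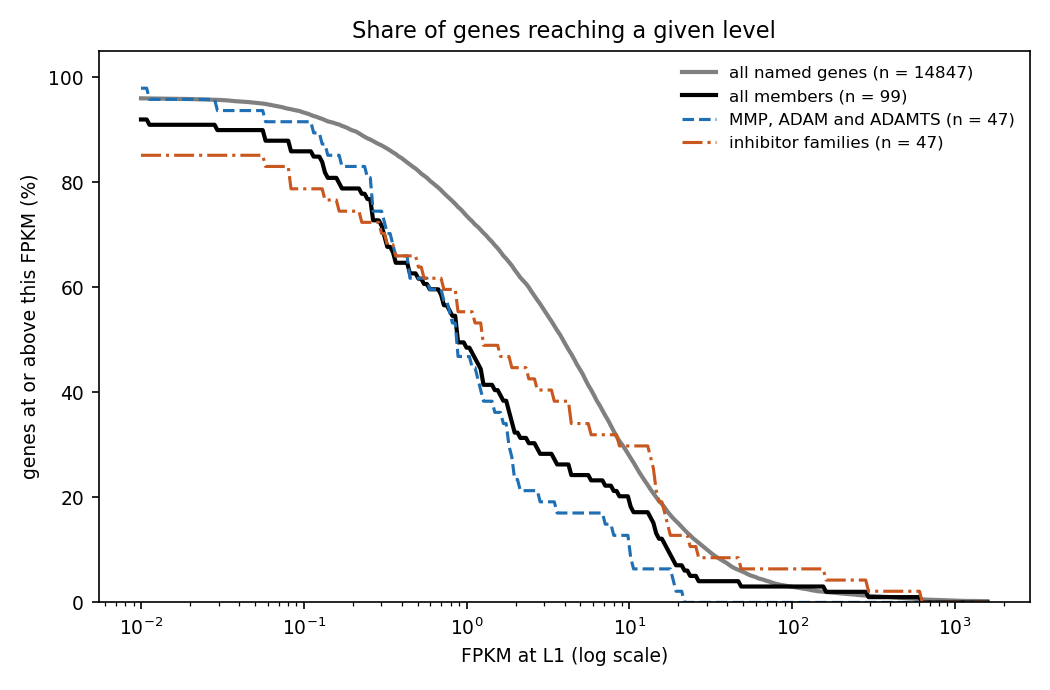
Share of genes (%) at or above each FPKM at L1 (log axis) for all named genes, all members, the MMP, ADAM and ADAMTS genes and the inhibitor families. At 1 FPKM the members stood at 48.5% and all named genes at 73.6%, with the inhibitor families at 55.3% and the metalloproteinases at 46.8%.

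A handful of inhibitors made up most of the summed level. Cst3, which encodes cystatin C, a secreted inhibitor of cysteine cathepsins, stood at 631 FPKM and ranked 85 among the named genes. Wfdc3, a WAP domain gene, stood at 294 FPKM and ranked 186, and Spint2, which encodes a membrane Kunitz inhibitor of serine proteases, at 160 FPKM and rank 298. Together they held 72.9% of the members' summed FPKM, Cst3 alone 42.4%. The 47 genes of the inhibitor families summed to 1348 FPKM against 139 FPKM for the 47 MMP, ADAM and ADAMTS genes, a ratio of 9.72. Without Cst3, Wfdc3 and Spint2 the inhibitor families summed to 262 FPKM and the ratio was 1.89. Neither ratio sets inhibitors against their own targets. Of these families the TIMPs, at 55.1 FPKM in sum, are the inhibitors of metalloproteinases. Serine and cysteine protease genes, such as Ctsb at 268 FPKM and St14 at 50.8, are not in the sum of 139 FPKM. By count, 14 of the 47 inhibitor family genes (29.8%) reached 10 FPKM, near the 27.9% of all named genes, and 6 of the 47 metalloproteinases (12.8%) did. The inhibitor family sums and this count include Serpinh1, Serpinf1 and Serpinb5, at 48.0, 16.0 and 13.9 FPKM, which do not act as protease inhibitors. The highest metalloproteinase, Adamts5 at 21.1 FPKM, lay below Timp2, both Spint genes, Serpinh1, Wfdc3 and Cst3.

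**Figure D2:**
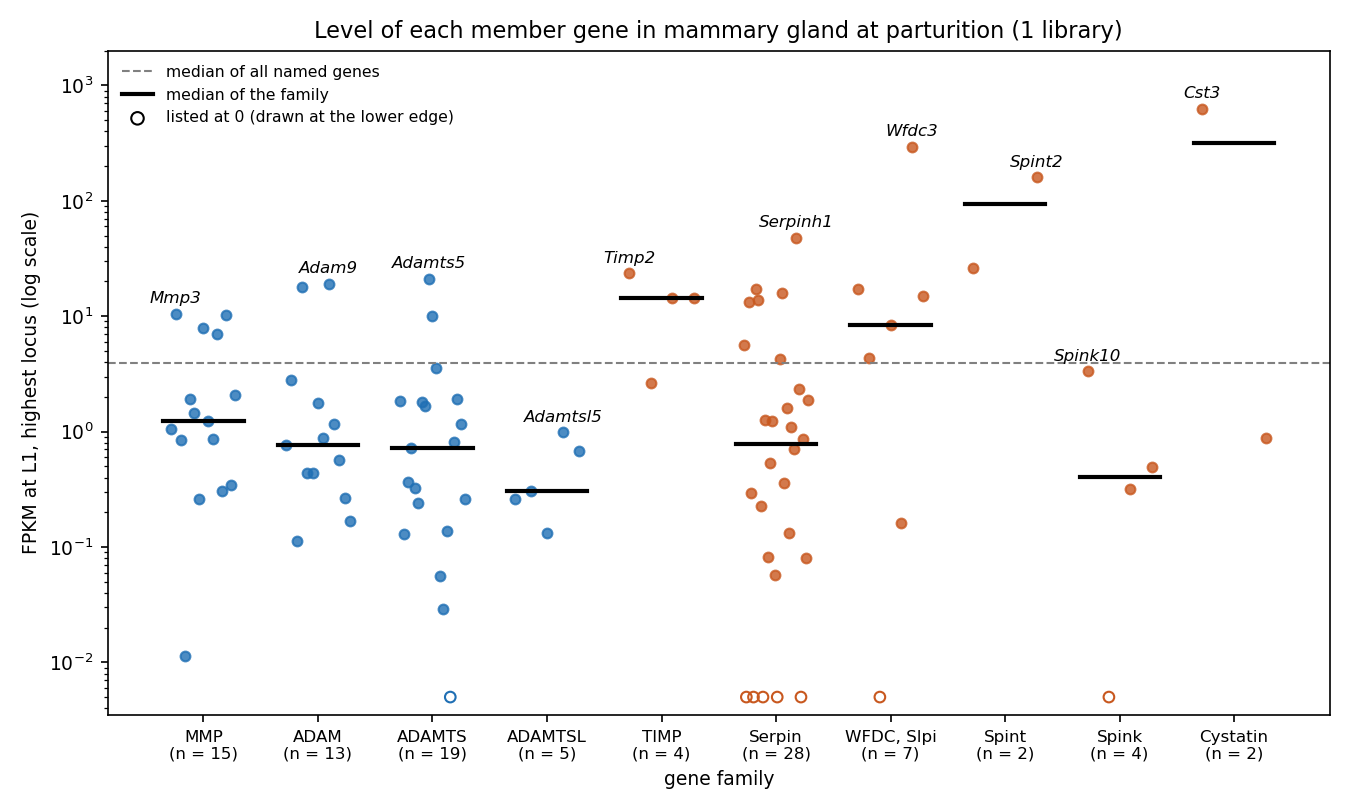
FPKM at L1 (log axis) of each of the 99 members by family, with the family median as a black bar, the median of all named genes (3.90) as a dashed line, and genes listed at 0 as open points at the lower edge. The medians of 4 families, TIMP, WFDC, Spint and cystatin, lay above the dashed line, and those of MMP, ADAM, ADAMTS, ADAMTSL, serpin and Spink lay below it.

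Among the matrix metalloproteinases, 9 of 15 genes reached 1 FPKM and 2 reached 10, with a median of 1.24. The highest was Mmp3 (stromelysin-1, which cuts proteoglycans and basement membrane proteins) at 10.5 FPKM. Mmp2 (gelatinase A, which cuts basement membrane collagen) stood next to it at 10.2. Mmp14, the membrane enzyme that activates the Mmp2 proenzyme, was at 7.91 and Mmp12, the macrophage elastase, at 7.02. These 4 stood apart from the rest of the family, in which the next gene, the membrane-type Mmp15, was at 2.09. Mmp28 (epilysin) was at 1.91 FPKM, the collagenase Mmp13 at 1.44, Mmp25 at 1.24 and Mmp19 at 1.04. The gelatinases differed strongly: Mmp9 was at 0.26 FPKM, so that Mmp2 lay 38.9 times above it. Mmp11, named stromelysin-3 but outside the gene cluster of Mmp3, was at 0.85, and Mmp3 lay 12.3 times above it. Both multiples rest on values below 1 FPKM at unknown depth. The remaining genes were Mmp23 at 0.87 and Mmp17, Mmp27 and Mmp16 at 0.35, 0.30 and 0.011.

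All 4 TIMP genes were above 1 FPKM, and 3 (75.0%) were above 10, levels that 73.6% and 27.9% of all named genes reached. Timp2, which blocks MMPs and also bridges Mmp14 to the Mmp2 proenzyme, was the highest at 23.6 FPKM. Timp3, the matrix-bound TIMP that also blocks ADAM17 and ADAMTS enzymes, stood at 14.5 and Timp1 at 14.4, values too close for a single library to order. Timp4 was the lowest at 2.66 FPKM, 8.87 times below Timp2. Summed, the TIMPs came to 55.1 FPKM and the 15 MMPs to 46.0, an MMP to TIMP ratio of 0.83. With the ADAM and ADAMTS genes added to the MMPs, the metalloproteinases summed to 139 FPKM, 2.51 times the TIMPs. Timp2 was 2.32 times Mmp2 and 2.98 times Mmp14, the enzymes it acts on as a complex. Reck, a membrane-anchored MMP inhibitor outside these families, was at 1.24 FPKM.

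The ADAM genes were led by 2 sheddases. Adam9 stood at 19.2 FPKM and Adam10, which cuts Notch receptors and many growth factor precursors, at 18.0. Adam17, the sheddase of amphiregulin and TNF, was at 2.80 FPKM, 6.42 times below Adam10. Adam15 was at 1.76 and Adam19 at 1.17, and with them 5 of 13 genes (38.5%) reached 1 FPKM, against 73.6% of all named genes. Adam12 was at 0.88, Adam8 at 0.76 and Adam33 at 0.57. Adam23, Adam11 and Adam22, which lack protease activity and are known from the nervous system, stood at 0.44, 0.27 and 0.17. Adam1a and Adam5, known from sperm, were at 0.44 and 0.11 FPKM.

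In the ADAMTS family, 8 of 19 genes (42.1%) reached 1 FPKM, against 73.6% of all named genes. Adamts5 and Adamts6 (10.5%) reached 10, against 27.9%. Adamts5, an aggrecanase that also cuts versican, stood at 21.1 FPKM, 2.11 times Adamts6 at 10.01. Other proteoglycan-cutting members were far lower: Adamts9 was at 3.57 FPKM, Adamts15 at 1.92, Adamts1 at 1.65, Adamts4 at 0.32 and Adamts8 at 0.057. Adamts5 lay 12.8 times above Adamts1 and 65.6 times above Adamts4, the other classical aggrecanase gene. The multiple over Adamts4 rests on a value below 1 FPKM at unknown depth. The procollagen N-propeptidases Adamts2, Adamts14 and Adamts3 stood at 1.16, 0.72 and 0.14. Adamts10 and Adamts12 were at 1.84 and 1.82 FPKM, and Adamts16 was listed at 0. The products of ADAMTSL genes resemble ADAMTS proteins but lack the protease domain. None of these 5 genes reached 1 FPKM, against 73.6% of all named genes, and they ranged from 0.13 to 0.98 (Adamtsl5).

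Among serpins, the highest genes included several that do not act as protease inhibitors. Of 28 serpins, 13 (46.4%) reached 1 FPKM and 5 (17.9%) reached 10, with a median of 0.79, against 73.6% and 27.9% of all named genes. Serpinh1, the collagen chaperone of the endoplasmic reticulum, led at 48.0 FPKM, which was 2.02 times Col1a1 at 23.8, while Col3a1 at 75.03 was 1.56 times Serpinh1. Serpinf1 (pigment epithelium-derived factor) and Serpinb5 (maspin, known from myoepithelial cells), both non-inhibitory, stood at 16.0 and 13.9 FPKM. The inhibitory serpins among the 5 were Serpinb6a, an intracellular serpin, at 17.2 FPKM, and Serping1, the inhibitor of complement C1, at 13.2. Next came Serpina3n, an acute-phase serpin, at 5.66 and Serpinb9, which blocks granzyme B, at 4.25.

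Serpine2 (protease nexin-1), which blocks thrombin and the plasminogen activators, stood at 1.25 FPKM and Serpine3 at 1.86. The urokinase gene Plau was at 5.62 FPKM, above Serpine2, and the tissue-type activator gene Plat was at 1.38. Serpinc1 (antithrombin) was at 0.86 FPKM and Serpina1b, an alpha-1-antitrypsin gene, at 0.71. Listed at 0 were Serpina12, Serpina3k, Serpina3m, Serpinb1b and Serpinb9b. Serpina1, Serpina3, Serpinb6 and Serpinb9 genes have related copies, whose similarity was not measured here. No source used here says how reads shared by copies were counted, so the single values of these genes are uncertain.

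Of the 7 WAP domain members, 5 (71.4%) reached 1 FPKM, near the 73.6% of all named genes. At 10 FPKM there were 3 (42.9%), against 27.9%, and the median was 8.38. Below Wfdc3 at 294 FPKM, Wfdc12 stood at 17.2 and Slpi, the inhibitor of neutrophil elastase, at 14.9. Wfdc2 (HE4), a secreted epithelial protein, was at 8.38 FPKM, Wfdc1 at 4.37 and Wfdc5 at 0.16, and Wfdc15b was listed at 0. Wfdc3 was therefore 17.1 times the next member of its family. Its value rests on 1 locus whose length was not used here, so whether a short locus raised it was not tested. Outside the rule, the gene Expi, which RefSeq calls Wfdc18, stood at 8186 FPKM, 27.8 times Wfdc3 and 13.0 times Cst3, and the whey acidic protein gene Wap itself at 63664.

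Both Spint genes were high, and the Spink genes were low. Spint2 at 160 FPKM was 6.09 times Spint1 at 26.3. Both block membrane-anchored serine proteases of epithelia: the matriptase gene St14 stood at 50.8 FPKM and the prostasin gene Prss8 at 15.3, so that Spint2 lay 3.15 times above St14 while St14 lay 1.93 times above Spint1. Of the 4 Spink genes only Spink10 (25.0%, against 73.6% of all named genes) reached 1 FPKM, at 3.33. Spink8 was at 0.49 and Spink5, which blocks skin kallikreins, at 0.32, and Spink3, the pancreatic trypsin inhibitor, was listed at 0. The 2 cystatins lay far apart, with Cst6 (cystatin E/M) at 0.88 FPKM, 713 times below Cst3. This multiple rests on a value below 1 FPKM at unknown depth.

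RNA of target proteases of the inhibitors was measured in the same library, which does not give the amount or activity of the proteins. The cathepsin genes Ctsb and Ctsl stood at 268 and 97.1 FPKM, and Cst3 lay 2.36 and 6.49 times above them. The elastase gene Elane was at 8.75 FPKM, and Slpi lay 1.70 times above it, while Serpinb1a, an intracellular elastase inhibitor, was at 0.29. Of a list of other genes of extracellular proteolysis, 59 of 73 were measured, with a median of 3.44 FPKM. On this list, which spans proteases, activators and inhibitors outside the member families, 44 of 59 (74.6%) reached 1 FPKM, near the 73.6% of all named genes, and 20 (33.9%) reached 10, against 27.9%. Its 12 highest genes began with Wap, Expi, the lysosomal protease gene Ctsd at 608 FPKM and Ctsb. Then came Bsg (the MMP inducer basigin) at 164, Pebp1 at 142, Ctsl, the cytosolic cystatin gene Cstb at 95.7 and St14. The last 3 were the membrane serine protease gene Tmprss13 at 49.7, Anxa2, a cell-surface binder of plasminogen, at 47.0, and the proprotein convertase gene Pcsk7 at 38.0 (71.7 summed over its loci). Furin, the convertase that activates Mmp14 and many ADAM proteins, was at 27.8 FPKM.

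**Figure D3:**
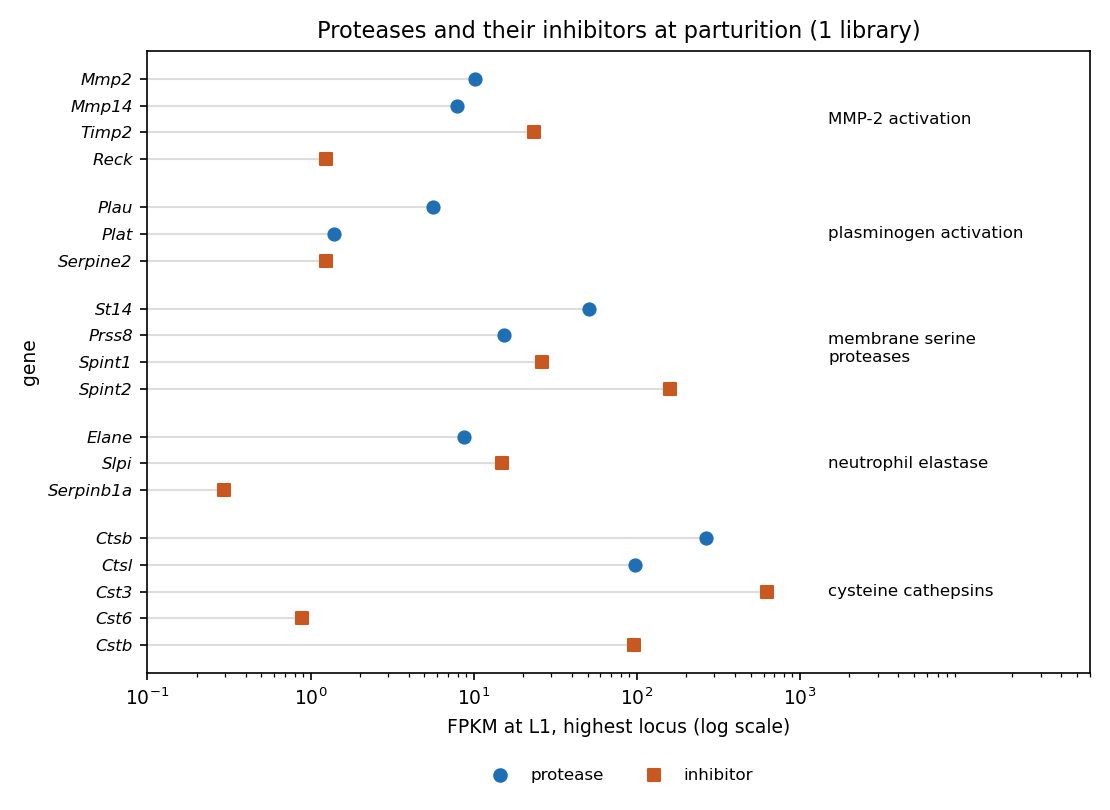
FPKM at L1 (log axis) of protease genes (blue circles) and inhibitor genes (orange squares) in 5 systems, 1 library. The highest inhibitor lay above the proteases drawn in 4 systems (Timp2 at 23.6, Spint2 at 160, Slpi at 14.9, Cst3 at 631), and in plasminogen activation Plau at 5.62 lay above Serpine2 at 1.25. The other inhibitors drawn in those 4 systems each lay below a protease of their system: Reck at 1.24, Spint1 at 26.3, Serpinb1a at 0.29, Cst6 at 0.88 and Cstb at 95.7.

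Many members lie in clusters of relatives in the genome, and measured genes of the same cluster held very different levels. In the order of protein-coding genes in RefSeq, the Mmp cluster from Mmp13 to Mmp7 has 10 genes, of which 4 were measured: Mmp13 at 1.44 FPKM, Mmp12 at 7.02, Mmp3 at 10.5 and Mmp27 at 0.30. In the cluster from Serpinb1a to Serpinb6a, 6 of 16 genes were measured, and the level ranged from 0 in Serpinb1b and Serpinb9b to 17.2 FPKM in Serpinb6a at its end. From Serpinb5 to Serpinb8, 4 of 12 were measured: Serpinb5 at 13.9 FPKM and 3 genes between 0.058 and 0.53. In the Serpina cluster, 9 of 23 were measured, and Serpina3n at 5.66 FPKM was the highest. None reached 10 FPKM, against 27.9% of all named genes. The counts leave out Serpina3f and Serpina3g, which share 1 locus at 5.22 FPKM.

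**Figure D4:**
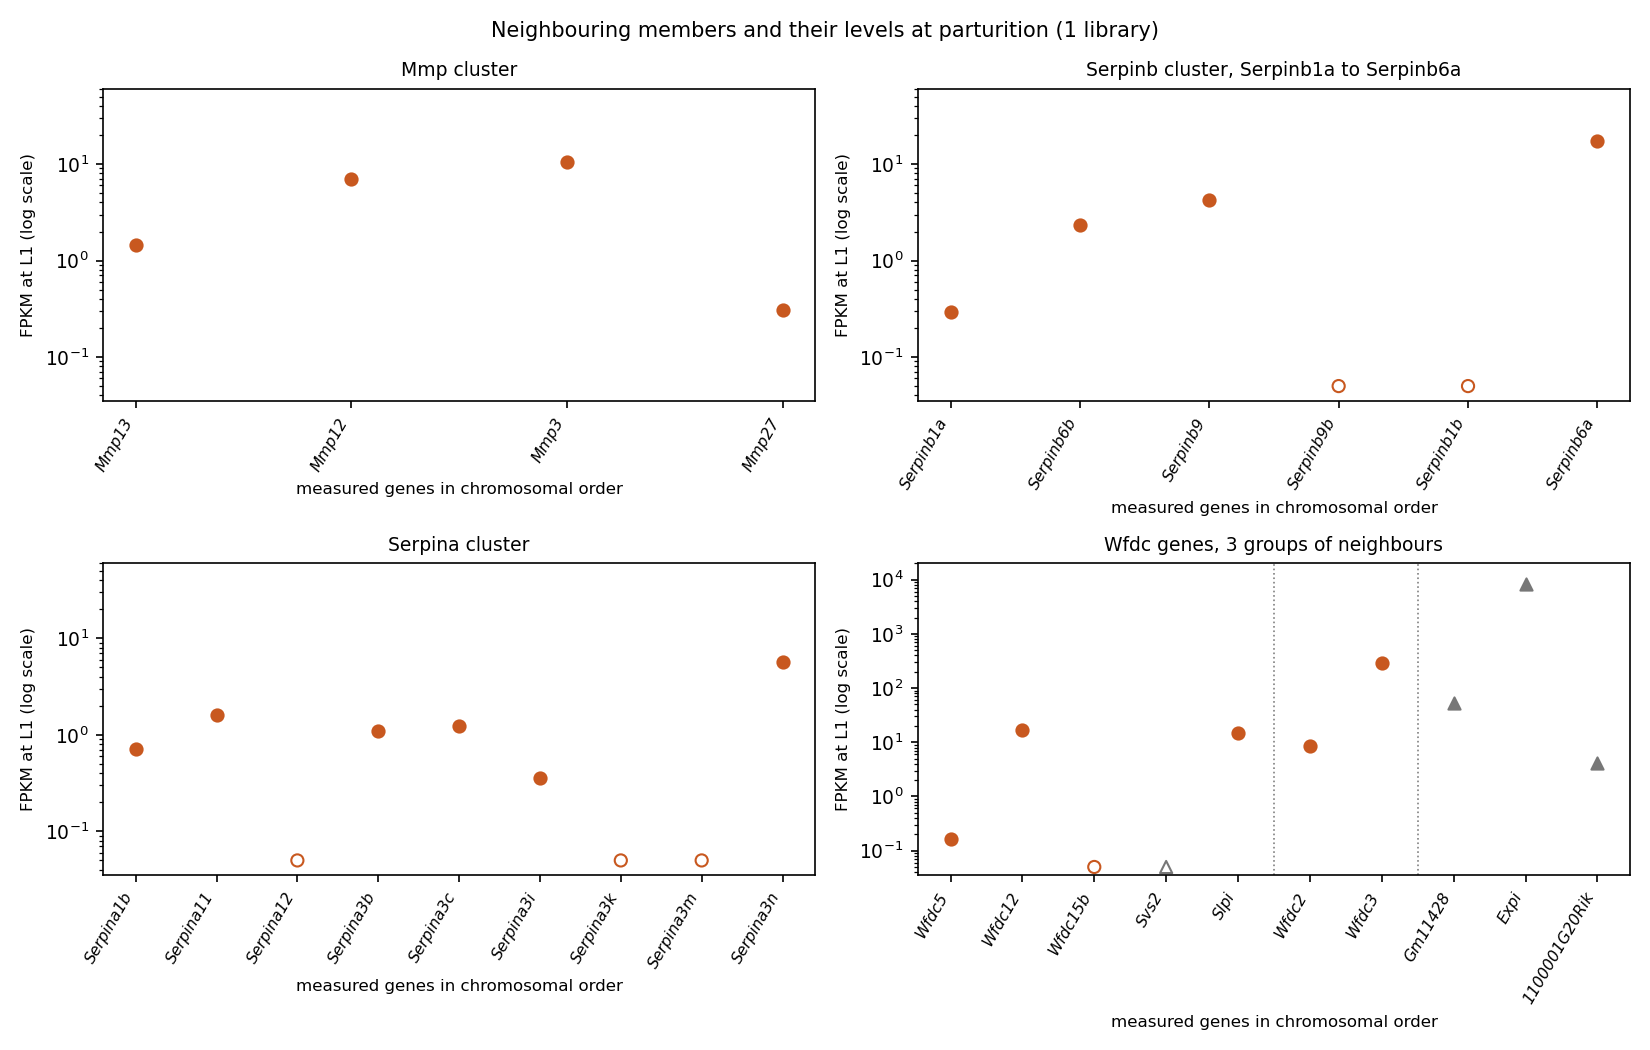
FPKM at L1 (log axes) of measured genes in chromosomal order in 3 clusters and 3 groups of Wfdc neighbours (split by dotted lines); orange circles are members, grey triangles are other genes, open symbols are listed at 0. Measured genes ran from 0.30 to 10.5 FPKM in the Mmp cluster and from 0 to 17.2 in the Serpinb cluster.

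Promoter windows were found under the same symbol for 65 of the 99 members. Only 60.4% of all promoter windows had their inner edge next to the RefSeq gene start. Counts and positions here and below are therefore relative to the start of each window as annotated. Whether that start is the one used in this tissue was not tested. In the 250 bases before the start the members had a median of 8 CG dinucleotides. This was below the 15 of the 10408 named genes with a window, the set the members come from, and above the 6 of all 27025 genes of the promoter table. Among all named genes this count went with the level, with a median of 9 below 1 FPKM and 16 both from 1 to under 10 and at 10 or more. Among members it did not, with medians of 8 in 27 genes, 7 in 23 genes and 8 in 15 genes at those levels. By family, the medians were 3 in 21 serpins and 3 in 5 WAP domain genes, against 17.5 in 8 ADAM genes, 18.5 in 10 ADAMTS genes and 25 in the 2 Spint genes. High members were found at both ends, such as Adam10 with 29 and Spint1 with 26, and Slpi and Serpinf1 with 2 each. These are descriptions of 1 library and 1 annotation, with no test.

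**Figure D5:**
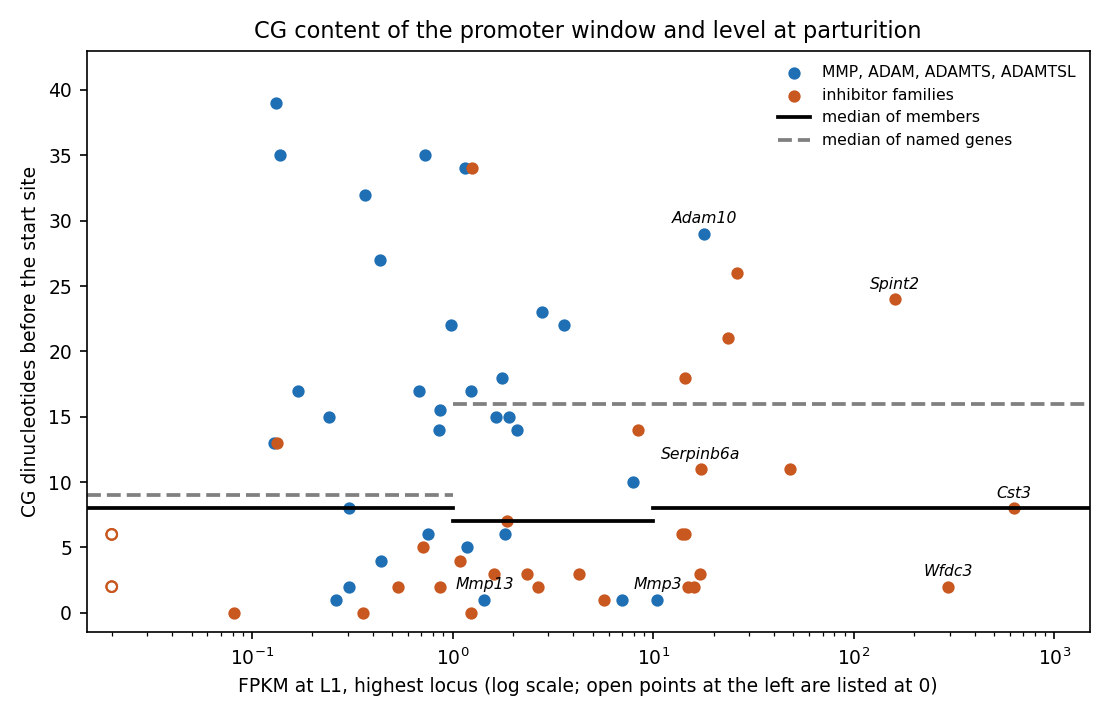
CG dinucleotides in the 250 bases before the start (median over a gene's windows) against FPKM at L1 (log axis) for 65 members; bars give medians of members (black) and of named genes (grey, dashed) below 1, from 1 to under 10, and at 10 FPKM or more. The members' medians were 8, 7 and 8 and those of named genes 9, 16 and 16.

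Sequence motifs were sparse in these windows. The STAT consensus TTCNNNGAA, which reads the same on both strands, occurred in 4 of 65 members (6.15%), in 7.45% of the 10408 named genes with a window and in 8.13% of all 27025 genes of the promoter table. Among the 15 members with a window that reached 10 FPKM, Serpinb6a alone held it, as TTCCGGGAA starting 77 bases before the start in 1 of its 2 windows. The AP-1 motif TGANTCA, also the same on both strands, occurred in 8 members (12.3%), in 6.16% of named genes and in 7.82% of all genes. Of the 10 MMP genes with a window, 3 held it: Mmp3, Mmp12 and Mmp13. TATAAA, searched on the gene's strand, occurred in 6 members (9.23%), in 5.29% of named genes and in 8.94% of all genes. Mmp3 and Mmp13 were the 2 members that held both, as do 0.64% of named genes and 1.05% of all genes. In Mmp3 they began 46 and 7 bases before the annotated start and in Mmp13 35 and 16, without overlapping. Although they share these motifs, Mmp3 at 10.5 FPKM stood well above Mmp13 at 1.44. A match is a run of letters only, and binding at these promoters was not analysed here.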

How the data were processed

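RNA-seq of 1 poly(A)-selected library of mammary tissue at parturition was used, sequenced on an Illumina HiSeq instrument per the labels' protocols. The deposited table gives FPKM per locus of a transcript assembly, computed by the authors. The submitters' processing notes name CASAVA, TopHat and the build mm9, without versions, and no source used here names the tool that computed FPKM. The table held 30305 loci, of which 21958 carried 1 symbol, 117 several and 8230 none. Loci with several symbols were left out, and the highest of a gene's loci was taken, with no minimum FPKM. Without counts, depth is unknown and no interval or floor was computed. With 1 library there is no test.

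The deposited ChIP-seq lists of day 6 of pregnancy are in mm9, for which no annotation was at hand, and were not used. RefSeq tables of GRCm38.p6 gave promoter windows, gene order and older symbols (97 of the 99 members matched). Summary functions were tested on simulated data. Python 3.11.15 and pandas 2.3.3 were used.

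Members and lists were chosen with earlier results of these data known. Named genes are the 6 highest of each family reaching 1 FPKM, every member at 10 FPKM or more, and the 12 highest of the proteolysis list. Other named members, target proteases, motifs and neighbour clusters were chosen after values were seen. Single values of some genes are not reported here.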

Additional observations from a re-analysis of the deposited data

How the results depend on the processing

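The results depend most on whether low genes are kept. With a minimum of 1 FPKM, which removes 51 of the 99 members, the members' median was 5.01 FPKM in place of 0.88, and the difference from all named genes in median log2(FPKM + 1) was -0.38 in place of -1.38. The same minimum gave medians of 2.09 for MMP, 2.80 for ADAM, 1.88 for ADAMTS, 4.25 for serpins, 14.9 for WAP domain genes, 3.33 for Spink and 631 for cystatins, and left no ADAMTSL gene. The Spink median was 0.65 with loci summed and 0.16 among genes with 1 locus, against 0.41, and the cystatin median was 0.88 among genes with 1 locus, which leaves only Cst6, against 316. All other values stayed within 1.5 times: the count at 1 FPKM ran from 39 of 82 genes with 1 locus to 51 of 102 genes, the latter with 3 genes under older symbols added after seeing the data. The MMP to TIMP ratio ran from 0.63 to 0.87, and the log2 difference was -2.03 with a pseudocount of 0.1. No paired analysis was possible because the expression data are 1 library. Unknown depth limits how low values can be read.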

Other observations

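A trio of neighbouring WAP domain genes falls outside the symbol rule because the table uses their older names. RefSeq calls them Wfdc17, Wfdc18 and Wfdc21, and the table Gm11428, Expi and 1100001G20Rik. They stood at 52.7, 8186 and 4.17 FPKM, so Expi lay above and Gm11428 below Wfdc3, the highest Wfdc member at 294. With them, the family's median was 11.6 FPKM over 10 genes.

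Some protease genes had many loci in the assembly, and the reason was not tested. Adam12 had 6 loci, whose highest was at 0.88 FPKM and whose sum was 1.09, and Adamts12 had 5, at 1.82 and 3.56. In the 20 members at 10 FPKM or more, no sum exceeded the highest locus by over 1.5 times. A locus that carried both Serpina3f and Serpina3g, left out of the members, stood at 5.22 FPKM, beside Serpina3n at 5.66.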
